A study of Danio rerio with 1109 samples.

Results

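The cells described here came from the trunk of zebrafish embryos at 48 hpf, carried a *vegfc* reporter at a high level and lay outside the fibroblast population of the horizontal myoseptum (HM) as far as *en1a* marks it. The line was *vegfc:Gal4FF;UAS:GFP;kdrl:mCherry*, in which Gal4FF placed under *vegfc* regulatory sequence on a bacterial artificial chromosome switches on a UAS-driven GFP, and in which *kdrl:mCherry* marks blood vessel endothelium. Members were cells of the 2 plates of this line with fewer than 20 raw counts of *en1a* and at least 100 raw counts of the *eGFP* transcript. They numbered 102 of the 1109 cells of the series, with 69 on *vegfc* plate 1 and 33 on *vegfc* plate 2. They were set against the other 522 cells of the same plates with fewer than 20 *en1a* counts, called reporter-low, of which 238 were on plate 1 and 284 on plate 2. All cells of both groups carried the same 3 transgenes and were of the same age. A further 120 cells of the line, 60 on each plate, had 20 or more *en1a* counts and are given only as a level beside the comparison. The remaining 365 cells came from a line with another reporter, *pdgfra:mCit*.

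Cells were sorted one to a well and sequenced by Smart-seq2, which reads whole transcripts and here counted reads, not molecules. Gene counts per cell lay between 141447 and 782140, with a median of 315702, in reporter-high cells, and between 59039 and 743590, with a median of 327916, in reporter-low cells. The labels name neither the embryo, the pool of embryos nor the sort gate of a cell. Cells are not replicates, so no p-value is given. Ratios were taken within each plate and the spread between the plates stands for the error. Intervals on shares are exact Clopper-Pearson 95% intervals, those on summed counts are exact Poisson intervals, and both cover counting error only. For a share of 0 the limit given is that of 3 cells of the total.

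Vegfc is the growth factor that drives sprouting of lymphatic progenitors from the cardinal vein by activating the receptor Flt4 on venous endothelium. It is secreted as an inactive pro-form and is cleaved with the help of the secreted protein Ccbe1 and of Adamts proteases. Fibroblasts of the HM lie along the path of the migrating lymphatic progenitors, and *en1a* encodes an Engrailed transcription factor that marks them. Gal4FF and UAS amplify a weak promoter, the GFP protein and its transcript can outlast the activity of the promoter, and UAS transgenes are known to be silenced in a mosaic way in zebrafish. A reporter transcript and a *vegfc* transcript in the same cell are therefore separate measurements.

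Because the members were chosen on *eGFP* and *en1a* counts, these counts are given as a description. Reporter-high cells had a median of 132 *eGFP* counts on plate 1 (range 100 to 1118) and 442 on plate 2 (101 to 1180). Reporter-low cells had a median of 50.5 on plate 1 (13 to 98) and 17 on plate 2 (0 to 91). No cell of plate 1 had fewer than 13 *eGFP* counts, so that the threshold of 100 cut through the upper edge of a continuous distribution there. The counts just inside it were 100, 100, 101 and 102 on plate 1 and 101, 111, 122 and 124 on plate 2. Those just outside it were 98, 98, 98 and 98 on plate 1 and 91, 91, 82 and 81 on plate 2. Of the reporter-high cells, 45 on plate 1 and 11 on plate 2 had 100 or more but fewer than 300 counts, and 24 and 22 had 300 or more. The *eGFP* count did not follow sequencing depth among the 283 cells of plate 1 and the 295 cells of plate 2 with fewer than 300 counts (Pearson's r = 0.0008 and 0.0044 across cells that share a plate).

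**Figure D1:**
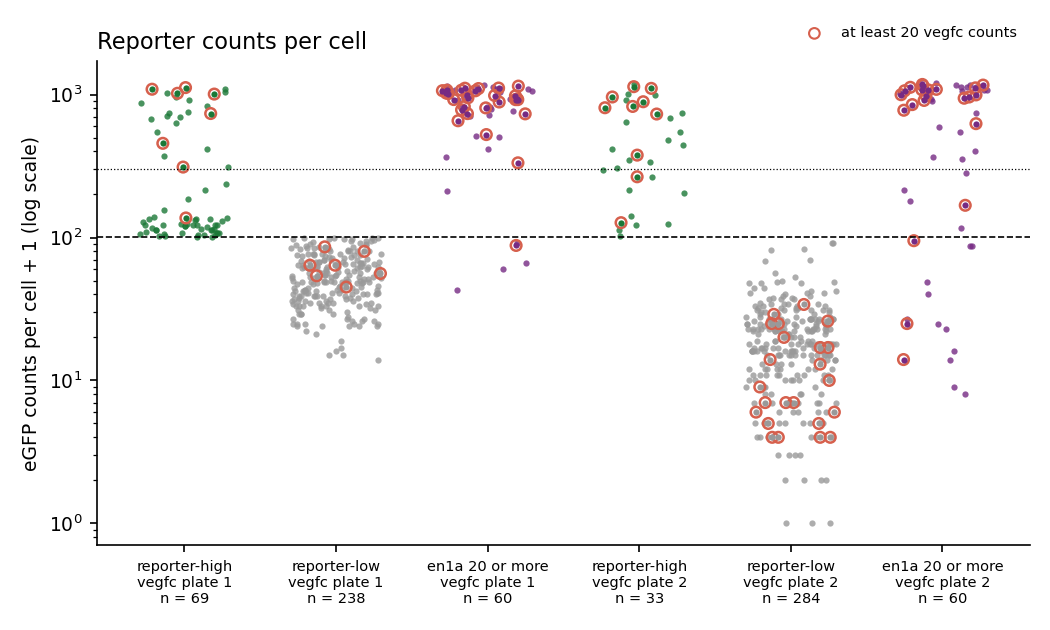
*eGFP* counts per cell plus 1 on a log axis for reporter-high cells, reporter-low cells and cells with 20 or more *en1a* counts, by *vegfc* plate, 1 point per cell. The dashed line is the threshold of 100 counts and the dotted line is 300 counts, and rings mark cells with at least 20 *vegfc* counts. On plate 1, 45 of the 69 reporter-high cells lie between the lines, against 11 of 33 on plate 2.

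The rule kept only cells with few *en1a* counts, so their *en1a* level is a description. Their median *en1a* count was 5 on plate 1 and 2 on plate 2, against 4 and 1 in reporter-low cells. It was 501 in the cells with 20 or more. None of the 102 had 20 counts of *en1b*, the second *en1* gene of zebrafish, which allows a share of up to 2.94%, whereas 114 of the 120 cells with 20 or more *en1a* counts did. Low *en1a* counts were nevertheless found in 92 of the 102, and in 432 of the 522 reporter-low cells. By their other genes, 3 reporter-high cells still fell into clusters named HM fibroblast-like. They had 915 and 630 *eGFP* counts on plate 1 and 1180 on plate 2, with 19, 0 and 0 *vegfc* counts.

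Well position moved with the reporter. On plate 1, 62 of 186 compared cells in plate columns 1 to 16 were reporter-high, and 7 of 121 in columns 17 to 24. On plate 2 the numbers were 32 of 191 and 1 of 126. All 24 and 22 cells with 300 or more *eGFP* counts were in columns 1 to 16. So were 59 of 60 and 60 of 60 cells with 20 or more *en1a* counts. Cells named macrophage-like or neutrophil-like showed the opposite layout, with 0 on plate 1 and 3 on plate 2 in columns 1 to 16, and 38 and 32 in columns 17 to 24. The study sorted GFP-positive cells that lacked mCherry and mCherry-positive cells that lacked GFP from this line, so that cells bright for both were in neither gate. The gate of a well is not labelled, and gate and reporter cannot be told apart. The shares of the main kinds, the *vegfc* values and the gene calls are therefore also given for columns 1 to 16 alone.

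To see which cells carried the reporter, all cells of the series were clustered without the reporters, the Vegfc pathway genes and the HM genes, and the 24 clusters were named from marker lists. The reporter was spread over many kinds of cell rather than held by one. Over all kinds, 102 of 624 compared cells were reporter-high, and in columns 1 to 16 it was 94 of 377 (24.9%, 20.6 to 29.6). Hypochord-like cells, muscle precursor and dermomyotome-like cells and neural progenitor and glia-like cells had the highest shares of reporter-high cells, and macrophage-like, neutrophil-like and endothelial-like cells the lowest. Of the 102 reporter-high cells, 21 (20.6%, 95% interval 13.2 to 29.7) were neural-like, against 12.1% (9.4 to 15.2) of reporter-low cells, and these intervals overlap. Another 22 (21.6%, 14 to 30.8) were fibroblast-like or HM fibroblast-like, against 33.5% (29.5 to 37.8) of reporter-low cells, and these intervals overlap as well. Myogenic-like cells made up 20.6% of reporter-high cells (13.2 to 29.7) and 9.96% of reporter-low cells (7.5 to 12.9) over both plates. On plate 1 these shares were 23.2% and 10.5% (13.9 to 34.9 and 6.9 to 15.1), with overlap. On plate 2 they were 15.2% and 9.51% (5.1 to 31.9 and 6.4 to 13.5), also with overlap. All these intervals count cells, which are not replicates, so whether they overlap is no test of a difference. In columns 1 to 16, 18 of 94 reporter-high cells were muscle precursor and dermomyotome-like and 2 differentiating muscle-like, against 37 and 14 of 283 reporter-low cells. Neural progenitor and glia-like and neuron-like cells numbered 15 and 6 there, against 33 and 29. Fibroblast-like and HM fibroblast-like cells numbered 19 and 3, against 57 and 11. In these columns the neural-like and the fibroblast-like shares of both groups were thus nearly equal and the myogenic-like shares close, unlike in all wells.

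The hypochord is a transient row of cells between the notochord and the dorsal aorta. Its cluster held only 7 cells. It was led by collagen genes, among them *col8a1a* and those listed as *COL2A1*, *COL11A2* and *col9a1b*, and it was named by *col8a1a*, *foxa* and *foxa1*, of which the *foxa* genes are also used by floor plate cells. Of these cells, 5 were reporter-high (71.4%, 29.0 to 96.3). They had 1118, 1089 and 1030 *eGFP* counts on plate 1 and 295 and 126 on plate 2, against 26 on plate 1 and 31 on plate 2 in the remaining cells of this kind. The 3 cells of plate 1 were thus among the 8 cells with the most reporter of all 102, while those of plate 2 lay below the median of their plate. The share was 5 of 6 in columns 1 to 16 (83.3%, 35.9 to 99.6). The name depended on the clustering. With 30 neighbours the 7 cells stayed together under it, Ward clustering put 6 of them, all 5 reporter-high ones included, into a mesothelium-like cluster, and clustering of the compared cells alone put the same number into an HM fibroblast-like one.

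Muscle precursor and dermomyotome-like cells, which expressed *myod1* and *wnt2*, were reporter-high in 19 of 57 cases (33.3%, 21.4 to 47.1). The share was 15 of 36 on plate 1 and 4 of 21 on plate 2. Their *eGFP* counts ran from 107 through a median of 136 to 1020, and only 8 reached 300, so that most sat just above the threshold. With 30 neighbours no cluster had this name, and 48 of the 57 cells, 17 of them reporter-high, were called differentiating muscle-like. Neural progenitor and glia-like cells, which expressed *gfap* and *sox19a*, were reporter-high in 15 of 48 cases (31.2%, 18.7 to 46.3), with 7 of 18 on plate 1 and 8 of 30 on plate 2. Their counts ran from 101 through a median of 671 to 1104, and 9 reached 300. The plates differed within this kind, since 7 of the 8 cells of plate 2 reached 300 and 2 of the 7 of plate 1. In columns 1 to 16 the share was 18 of 55 (32.7%, 20.7 to 46.7) for the muscle precursor and dermomyotome-like cells and again 15 of 48 for the neural progenitor and glia-like ones. Over all kinds it was 94 of 377 there (24.9%), a value inside the intervals of both.

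Visceral mesenchyme-like cells, led by *foxf2a* and *nkx3.3*, were reporter-high in 12 of 55 cases (21.8%, 11.8 to 35.0), of which 7 reached 300 *eGFP* counts. Mesothelium-like cells were reporter-high in 8 of 33 cases (24.2%, 11.1 to 42.3). All 8 were on plate 1, where 8 of 20 cells passed the threshold against 0 of 13 on plate 2 (up to 23.1%), and only 1 of them reached 300. Neuron-like cells were reporter-high in 6 of 36 cases (16.7%, 6.4 to 32.8), and an unnamed cluster led by *cldn7b* and *elf3*, genes of epithelia, in 8 of 56 (14.3%, 6.4 to 26.2). The 3 reporter-high HM fibroblast-like cells made up 3 of 16 of their kind, and the 2 differentiating muscle-like ones made up 2 of 16.

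Fibroblast-like cells gave 19 reporter-high cells of 181 (10.5%, 6.4 to 15.9), with *eGFP* counts from 101 through a median of 265 to 1135. Within columns 1 to 16 the share was 19 of 76 (25%, 15.8 to 36.3), since all 19 reporter-high fibroblast-like cells lay there but only 57 of the 162 reporter-low ones. Several of their clusters had a marker of another list among the leading genes, so reporter-high and reporter-low cells were compared in single clusters. Leaving those clusters out, fibroblast-like and HM fibroblast-like cells made up 14.7% of reporter-high cells. Cluster 2, led by *APLNR*, a receptor for apelin peptides, and by the chemokine gene *cxcl12b*, held 72 cells of plate 1, of which 10 were reporter-high (13.9%, 6.9 to 24.1). Cluster 10, led by *wt1b* and *SLC6A4*, held 54 cells of plate 2, of which 4 were reporter-high (7.41%, 2.1 to 17.9). Few blood and endothelial-like cells were reporter-high. Among 50 macrophage-like, 23 neutrophil-like, 25 erythroid-like and 21 endothelial-like cells, 1, 1, 2 and 1 passed 100 counts, and at most 130 counts were found in them. For the macrophage-like cells, 0 of 50 at 300 counts allows a share of up to 6.0%. Columns 1 to 16 held 3 macrophage-like, 4 erythroid-like, 0 neutrophil-like and 0 endothelial-like cells, so these low shares and the sort gate cannot be told apart.

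**Figure D2:**
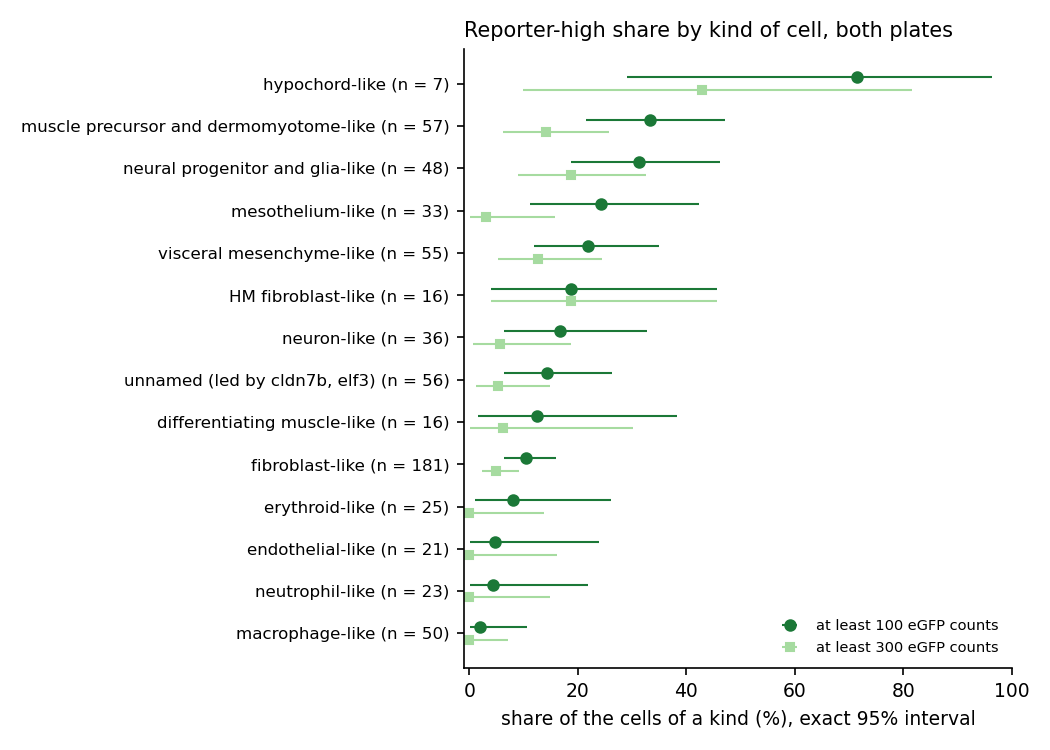
Share of the cells of each kind with at least 100 (circles) and at least 300 (squares) *eGFP* counts, over both *vegfc* plates, with exact 95% intervals and the number of compared cells of each kind in brackets. The shares at 100 counts run from 71.4% in hypochord-like cells to 2.0% in macrophage-like cells, and those at 300 counts from 42.9% in hypochord-like cells to 0 in blood and endothelial-like cells.

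The next question was whether a high reporter came with the *vegfc* transcript. Summed over cells it did, on both plates, but most reporter-high cells had fewer than 20 counts of *vegfc*. Of the reporter-high cells, 8 of 69 on plate 1 (11.6%, 5.1 to 21.6) and 10 of 33 on plate 2 (30.3%, 15.6 to 48.7) had at least 20 *vegfc* counts. Of the reporter-low cells, 7 of 238 on plate 1 (2.94%, 1.2 to 6.0) and 23 of 284 on plate 2 (8.10%, 5.2 to 11.9) did. None of the 73 macrophage-like and neutrophil-like cells did, which allows a share of up to 4.11%. Their median depth was 376502 gene counts. Over the cells of a group, *vegfc* summed to 35.9 CPM (33.5 to 38.5) in reporter-high cells of plate 1, against 10.7 CPM (10.0 to 11.4) in reporter-low cells. On plate 2 it summed to 48.8 CPM (44.9 to 52.9) in reporter-high cells, against 25.8 CPM (24.8 to 26.9) in reporter-low cells. The log2 ratio of reporter-high over reporter-low was 1.66 and 0.89 (mean 1.28 ± 0.54, SD, n = 2 plates), so that *vegfc* was not 2-fold higher on plate 2. In columns 1 to 16 it was, at log2 ratios of 1.28 and 1.67, and 8 of 62 and 10 of 32 reporter-high cells had at least 20 *vegfc* counts, against 6 of 124 and 7 of 159 reporter-low cells. Cells with 20 or more *en1a* counts stood well above both groups at 269 and 214 CPM, with 28 and 22 of 60 cells at 20 or more counts.

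Within the reporter-high cells, most of those with at least 20 *vegfc* counts had 300 or more *eGFP* counts. Among cells with 300 or more *eGFP* counts, 7 of 24 on plate 1 (29.2%, 12.6 to 51.1) and 8 of 22 on plate 2 (36.4%, 17.2 to 59.3) did. Among those with fewer than 300 counts, 1 of 45 on plate 1 and 2 of 11 on plate 2 (18.2%, 2.3 to 51.8) did. The share of 2.22% on plate 1 (0.06 to 11.8) was close to the 2.94% of reporter-low cells. *vegfc* summed to 85.0 and 56.7 CPM in the cells of 300 or more counts on plates 1 and 2, against 11.6 and 32.4 CPM in the others. Within the reporter-low cells of plate 2 the level was higher where the reporter was lower. *vegfc* summed to 11.1 CPM in the 123 cells with 20 to 99 *eGFP* counts and to 37.1 CPM in the 161 cells with fewer. But 7 of 159 reporter-low cells in columns 1 to 16 had at least 20 *vegfc* counts, against 23 of 284 in all wells. The median *eGFP* count of reporter-low cells of plate 2 was 21 in columns 1 to 16 and 12 in columns 17 to 24. This order and the well position cannot be told apart.

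The 18 reporter-high cells with *vegfc* were 5 fibroblast-like, 4 neural progenitor and glia-like, 3 hypochord-like, 3 visceral mesenchyme-like, 2 of the unnamed cluster and 1 muscle precursor and dermomyotome-like. On plate 1 their *vegfc* counts were 170, 157, 145, 127, 41, 38, 33 and 24. The cell with 170 belonged to the unnamed cluster and those with 157 and 127 were hypochord-like. On plate 2 the counts were 105, 102, 79, 77, 50, 47, 39, 33, 32 and 20. The highest was in a fibroblast-like cell of cluster 10 and the next, with 102 and 79, were in neural progenitor and glia-like cells. None of the 18 had 20 counts of *ccbe1*. Conversely the cell with the most reporter of all, at 1180 *eGFP* counts, had 0 counts of *vegfc*, and 12 of the 34 cells with 500 or more *eGFP* counts had 20 or more.

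Reporter-low cells with *vegfc* were mostly on plate 2. There were 30, and 17 of them were fibroblast-like (13 of these in cluster 10), 7 visceral mesenchyme-like, 3 endothelial-like, 2 mesothelium-like and 1 muscle precursor and dermomyotome-like. On plate 2, 23 such cells had a median of 101 *vegfc* counts and up to 329, with a median of 8.0 *eGFP* counts and at most 33. Cluster 10, where 13 of the 50 reporter-low cells of plate 2 had *vegfc*, is led by *wt1b*, a marker of another list, and its mean log2 ratio over other cells for the fibroblast list was -0.02. There were 13 reporter-low cells with *vegfc* in columns 1 to 16, and 3 of them were fibroblast-like. The cell with 329 *vegfc* counts, fibroblast-like, had 3 *eGFP* counts and 210 *ccbe1* counts. On plate 2 the reporter-low cells with *vegfc* outnumbered the reporter-high ones, at 23 of 284 against 10 of 33, although their share was lower. In columns 1 to 16 of plate 2 they did not, at 7 of 159 against 10 of 32. No *vegfc* count among the reporter-high cells came near the 329.

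**Figure D3:**
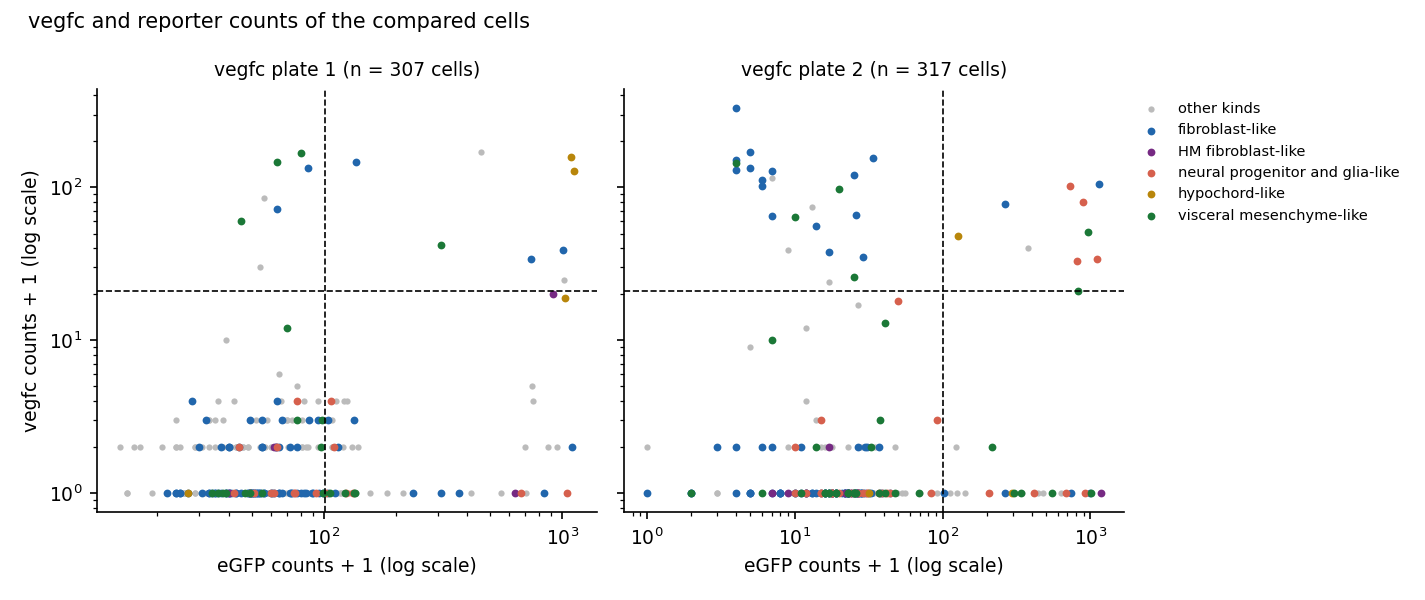
*vegfc* counts plus 1 against *eGFP* counts plus 1, both on log axes, for the 307 compared cells of plate 1 and the 317 of plate 2, coloured by kind. The dashed lines stand at 100 *eGFP* and 20 *vegfc* counts. Above the *vegfc* line and right of the *eGFP* line lie 8 cells on plate 1 and 10 on plate 2, and left of it 7 and 23.

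Within a kind the relation of reporter and transcript differed in size and in direction. Among neural progenitor and glia-like cells, 4 of 15 reporter-high cells had at least 20 *vegfc* counts (26.7%, 7.8 to 55.1), against 0 of 33 reporter-low cells (up to 9.09%). Their summed *vegfc* was 48.1 CPM (42.3 to 54.4), against 2.69 CPM (1.77 to 3.91). All 4 cells were on plate 2, where the levels were 96.1 CPM against 3.23 CPM. On plate 1 they did not differ, at 1.52 CPM over 7 reporter-high cells and 1.55 CPM over 11 reporter-low cells. The 5 reporter-high hypochord-like cells summed to 248 CPM (223 to 276), with 3 cells at 20 or more counts, and the 2 reporter-low ones had 0 counts. Their level was 404 CPM over 3 cells on plate 1 and 71.3 CPM over 2 cells on plate 2. On plate 2 the 8 reporter-high neural progenitor and glia-like cells (96.1 CPM) and the 6 fibroblast-like ones (76.7 CPM) stood higher. So did the single reporter-high cell of the unnamed cluster (98.9 CPM). In the fibroblast-like cluster 2 on plate 1, 2 of 10 reporter-high cells had at least 20 *vegfc* counts, against 2 of 62 reporter-low cells. In cluster 10 on plate 2, 1 of 4 reporter-high cells did, against 13 of 50 reporter-low cells. Among all fibroblast-like cells of plate 2 in columns 1 to 16, however, 2 of 6 reporter-high cells did, against 2 of 25 reporter-low cells. The value of cluster 10 and the well position therefore cannot be told apart. Visceral mesenchyme-like cells summed to 26 CPM over 12 reporter-high cells, against 45.7 CPM over 43 reporter-low cells, while 3 of the 12 (25%) had at least 20 counts, against 7 of the 43 (16.3%). Muscle precursor and dermomyotome-like cells, with as many reporter-high cells as the fibroblast-like ones, were at 5.75 CPM against 8.56 CPM, with 1 cell of each group at 20 or more counts. The 8 mesothelium-like and 6 neuron-like reporter-high cells had at most 3 *vegfc* counts. Summed *vegfc* in reporter-high against reporter-low cells was 2.46 against 9.69 CPM for the mesothelium-like kind and 1.84 against 0.59 CPM for the neuron-like one.

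Across all genes, reporter-high cells carried more transcript of neural progenitor and hypochord genes and less of macrophage and neutrophil genes. A gene was compared where enough cells on both plates had 20 counts, and was called where its summed CPM differed at least 2-fold in the same direction on both plates. Of 10122 genes compared, 225 were higher (2.22%) and 502 lower (4.96%). The median log2 ratio over all genes was 0.003 on plate 1 and -0.008 on plate 2. The call takes a difference in the mix of kinds and a difference within a kind alike, and the genes that define the clusters lead it.

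The 15 genes that headed the higher side were drawn from 126 that met the rule for naming. The first, *PTPRZ1*, a receptor phosphatase gene of neural progenitors and glia, had 37.0 and 166 CPM in reporter-high cells of plates 1 and 2, against 7.43 and 15.4 CPM in reporter-low cells. It reached 20 counts in 10 of 69 and 9 of 33 reporter-high cells, against 7 of 238 and 13 of 284 reporter-low cells. It was no longer called at a threshold of 300 *eGFP* counts (log2 ratios -0.24 and 2.91) or without neural-like cells (2.40 and -1.16). *gfap*, the intermediate filament gene of radial glia, had 449 and 755 CPM against 121 and 168 CPM. The progenitor transcription factor gene *sox2* had 121 and 126 CPM against 20.2 and 33.9 CPM, and *sox21b*, of the same family, had 46.2 and 61.0 CPM against 10.0 and 14.3 CPM. Neural-like cells held 98.5% of the *gfap* counts and 98.9% of the *sox21b* counts of reporter-high cells, but 66.0% of those of *sox2*. *PTPRZ1* and *sox21b*, like *col5a3a* and *ctnnd2b* below, were compared only because enough reporter-high cells had 20 counts. Among reporter-low cells, 1.68% to 3.36% on plate 1 and 3.52% to 4.58% on plate 2 reached 20 counts of these genes. Their calls are thus a description and are not set against the share over all genes.

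Some of the other genes on the higher side had much of their reporter-high counts in hypochord-like cells. *COL2A1* (ENSDARG00000069093), a gene for the fibrillar collagen of cartilage and of the notochord sheath, had 568 and 523 CPM in reporter-high cells, against 164 and 11.3 CPM in reporter-low cells. Hypochord-like cells held 89.9% of its counts among reporter-high cells and 59.4% among reporter-low cells. *SULF1*, which encodes an extracellular sulfatase that trims heparan sulfate, had 200 and 253 CPM against 61.5 and 61.2 CPM, with 55.0% of its reporter-high counts in hypochord-like cells. At a threshold of 300 *eGFP* counts neither *SULF1* (2.56 and -0.07) nor *COL2A1* was 2-fold higher on plate 2. *col5a3a*, another fibrillar collagen gene, had 32.2 and 80.4 CPM against 2.83 and 18 CPM, divided between neural-like (51.6%) and hypochord-like cells (42.9%). The globin relative *cygb1* had 77.8 and 123 CPM against 22.7 and 34.2 CPM. The Notch target *her4.2* (ENSDARG00000094426) had 89.2 and 288 CPM against 27.2 and 88.1 CPM, and since the *her4* genes are near-identical copies their counts may be shared among them. The other names were *endouc*, *zgc:165461*, *ctnnd2b*, *IFT70A*, *si:dkeyp-4c4.1* and *robo4*, the last of which encodes a Roundabout receptor. Their log2 ratios lay between 1.65 and 2.40 on both plates. Neural-like cells held 82.8% to 98.5% of the reporter-high counts of *her4.2* (ENSDARG00000094426), *endouc*, *zgc:165461*, *ctnnd2b* and *robo4*. Hypochord-like cells held 48.9% of those of *si:dkeyp-4c4.1*, 27.1% of those of *cygb1* and 0.14% of those of *IFT70A*.

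Inside the neural progenitor and glia-like cells, most of the same genes differed less between reporter-high and reporter-low cells, with *IFT70A* (log2 ratio 2.79), *si:dkeyp-4c4.1* (2.32), *cygb1* (-3.68) and *SULF1* (-5.61) as exceptions. These exceptions rested on few cells. *IFT70A* reached 20 counts in 4 of 15 reporter-high and 3 of 33 reporter-low cells, and *si:dkeyp-4c4.1* in 5 and 1. For *cygb1* the numbers were 0 and 1, and for *SULF1* 0 and 5. *gfap* reached 20 counts in 15 of 15 reporter-high cells and 24 of 33 reporter-low cells, at 3379 against 2194 CPM (log2 ratio 0.62). *her4.2* (ENSDARG00000094426) was at 872 against 798 CPM (0.13). *PTPRZ1* was found in 14 of 15 against 15 of 33 cells, at 438 against 165 CPM (1.40), and *robo4* in 10 of 15 against 14 of 33, at 761 against 292 CPM (1.38). Outside this kind, *IFT70A* was at 2.96 in muscle precursor and dermomyotome-like, 2.25 in fibroblast-like and 0.98 in visceral mesenchyme-like cells. There 2 of 19, 3 of 19 and 5 of 12 reporter-high cells reached 20 counts, against 0 of 38, 7 of 162 and 7 of 43 reporter-low cells. In the same order *SULF1* was at 0.47, 0.75 and 2.06. All these values within kinds pool both plates and come with no spread. When neural-like cells were left out, 220 genes were higher (2.18% of those compared) and 580 lower (5.76%). Of the 225 genes, 120 were among the 220. *gfap* and *robo4* then had log2 ratios of 0.27 and 0.46 on plate 1 and -1.30 and -4.09 on plate 2.

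**Figure D4:**
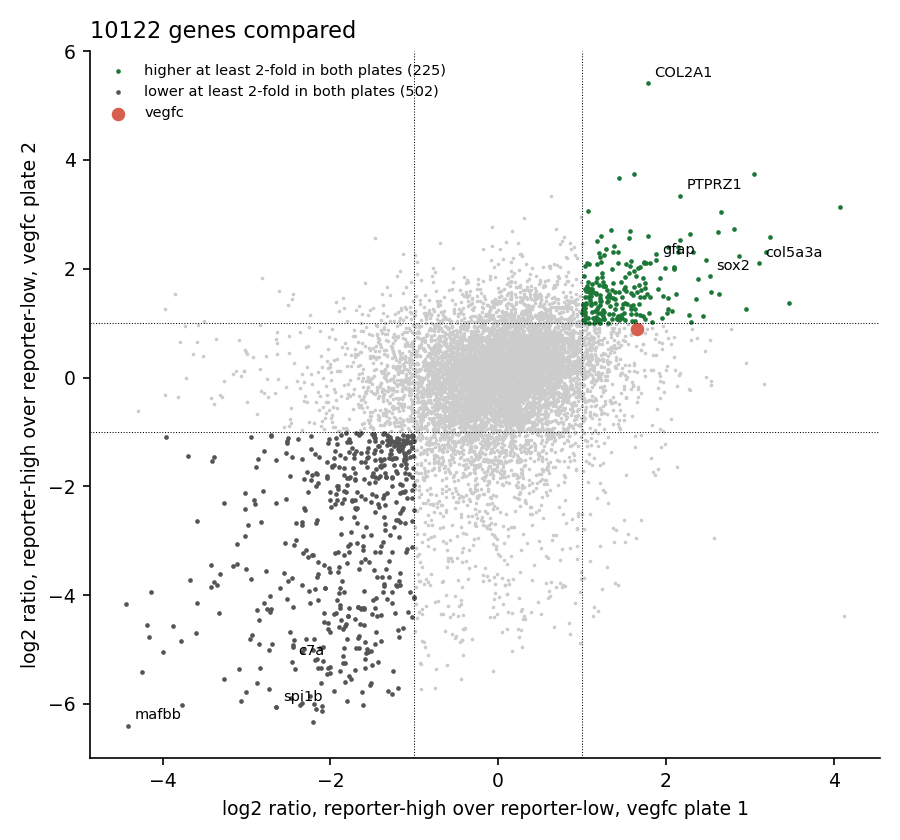
Log2 ratio of summed CPM plus 1, reporter-high over reporter-low, on plate 1 (horizontal) against plate 2 (vertical), 1 point per gene for 10122 genes. Green points are the 225 genes higher and dark points the 502 genes lower at least 2-fold on both plates, the dotted lines mark 2-fold, and *vegfc* (red, 1.66 and 0.89) lies just under the line on plate 2.

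On the lower side, most of the 15 named genes, drawn from 204 that met the rule, belong to myeloid cells. *mafbb*, a macrophage transcription factor gene, had 2.74 and 0.50 CPM in reporter-high cells of plates 1 and 2, against 78.4 and 126 CPM in reporter-low cells. *spi1b*, which encodes the Pu.1 factor of myeloid cells, had 32.4 and 2.0 CPM against 207 and 200 CPM. *nrros*, a gene of macrophages and microglia, had 13.2 and 1.25 CPM against 117 and 138 CPM. *ptpn6*, a phosphatase gene of blood cells, had 21.6 and 0.92 CPM against 125 and 113 CPM. Macrophage-like and neutrophil-like cells held between 85.6% and 96.5% of the reporter-low counts of these 4 genes. The same held at 88.2% or more for *lcp2a*, *fyb1b*, *zgc:172352*, *si:dkey-262k9.4*, ENSDARG00000100461 and 1 further gene. It held less for *GLB1*, *cldni*, *si:ch73-314g15.3* and *ndrg1a*, at 34.0% to 64.1%.

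The gene *c7a*, named for complement component 7, was the exception. It had 7.15 and 0.92 CPM in reporter-high cells, against 43.8 and 70.6 CPM in reporter-low cells, with 0.45% of the counts of reporter-low cells in macrophage-like and neutrophil-like cells. It is among the leading genes of cluster 10. It reached 20 counts in 2 of 69 and 0 of 33 reporter-high cells, against 28 of 238 and 43 of 284 reporter-low cells. Without macrophage-like and neutrophil-like cells its log2 ratio was -2.66 and -5.43, and in columns 1 to 16 it was -2.02 and -4.03. In both settings *GLB1*, *ndrg1a*, *si:ch73-314g15.3* and *cldni* also stayed more than 2-fold lower on both plates. In columns 1 to 16 they were at -2.80 and -3.65, -2.02 and -3.99, -2.32 and -1.47, and -1.73 and -3.90. None of the other named lower genes was 2-fold lower on both plates there.

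In columns 1 to 16 alone, with 62 and 32 reporter-high and 124 and 159 reporter-low cells, 123 of 9540 genes were higher (1.29%) and 227 lower (2.38%). Of the 225 genes higher in all wells, 77 were among these 123, and of the 502 lower ones, 86 were among the 227. Nearly the same reporter-high cells enter both. *spi1b* was then at log2 ratios of -0.23 and -0.44, and *zgc:172352* at -0.03 and 0.09. *gfap* (1.21 and 1.43), *PTPRZ1* (1.60 and 2.74) and *COL2A1* (ENSDARG00000069093, 4.17 and 4.76) stayed above 2-fold on both plates. Leaving out macrophage-like and neutrophil-like cells gave 158 higher genes (1.64%) and 195 lower ones (2.03%), of which 139 were among the 502. With the threshold at 300 *eGFP* counts, where 24 and 22 cells were reporter-high, 226 genes were higher (2.33%) and 807 lower (8.31%), and 79 of the 225 higher genes were among the 226. With the threshold at 500 counts, where 19 and 15 cells were reporter-high, 391 were higher (3.73%) and 993 lower (9.48%).

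Lists of marker genes stand beside the shares of 2.22% higher and 4.96% lower over all genes. A gene can pass the filter through only the reporter group where it is high. The count of calls in a list is therefore a description and no test. Of 10 neural progenitor and glia genes compared, 9 were higher, with median log2 ratios of 1.38 and 1.74. The exception was *slc1a2b*, a glutamate transporter gene of glia, at 0.16 and 2.69. The genes *notch3* (1.15 and 1.22) and *plp1a* (1.65 and 1.58) were among the 9. Of these 10 genes, 3 were still higher in columns 1 to 16, where the medians were 0.81 and 1.14. Of 5 neuron genes, only *mnx1* (1.44 and 1.06), a motoneuron factor, was higher, which it was no longer in columns 1 to 16 (0.93 and 0.34), and *elavl3* was at 0.84 and 0.10. All 3 hypochord genes were higher, with *foxa* at 4.08 and 3.14, *col8a1a* at 1.62 and 3.74 and *foxa1* at 1.56 and 2.56, and 2 of the 3 were also higher in columns 1 to 16. At a threshold of 300 *eGFP* counts, which no hypochord-like cell of plate 2 reached, only 1 of the 3 passed the filter, and it was not higher. The ratios of *col8a1a* were 3.28 and -4.93 at this threshold. These genes define the cluster of 7 cells named above, and a gene passes the filter through either reporter group alone. On plate 2 that can rest on the 2 reporter-high hypochord-like cells. The 3 calls thus only describe this cluster and are not set against the share over all genes.

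Of 6 muscle precursor and dermomyotome genes, *meox1*, a somite transcription factor gene, was higher at 1.18 and 1.26, but not in columns 1 to 16 (0.76 and 1.06). The others, among them *six1b* (1.31 and 0.98) and *myf5* (2.78 and 0.89), were above 2-fold on plate 1 only. The 6 genes of differentiating muscle were called in neither direction, with *actc1b* at 0.73 and -0.61. The single arterial gene compared, *hey2*, was higher at 1.77 and 1.53, and with *her4.2*, here under another identifier (1.30 and 1.60), it made up the 2 of 7 Notch and Hedgehog response genes that were higher. Of the pair, *hey2* stayed higher in columns 1 to 16 (1.40 and 1.67) and *her4.2* did not (0.62 and 0.99). Another gene of the arterial list, *flt1*, did not pass the filter and went the other way. It had 0.13 and 0.42 CPM in reporter-high cells of plates 1 and 2, against 4.49 and 37.2 CPM in reporter-low cells. The Hedgehog receptor gene *ptch1* was at 0.53 and 0.76.

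None of 8 fibroblast genes was called, with *col1a1a* at -0.20 and -0.31, *pdgfra* at -0.05 and 0.71, and medians of -0.13 and 0.17. The 7 HM fibroblast genes compared, a list the study chose on these cells, gave no call either, with medians of -0.12 and 0.31. Of 5 fin mesenchyme genes, 3 were lower, namely *fbln1*, *pah* and *fah*, and in columns 1 to 16 the count was 5 of 6. The phenylalanine hydroxylase gene *pah* was at -3.68 and -3.72. The 4 visceral mesenchyme genes and the 3 mesothelium genes were not called. The mesothelium genes differed by plate, with medians of 1.12 on plate 1 and -0.33 on plate 2, and all reporter-high mesothelium-like cells were on plate 1.

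Of 10 macrophage genes 9 were lower and of 3 neutrophil genes all were, with medians of -2.20 and -4.85 and of -1.44 and -3.67. The macrophage genes *mafbb* and *spi1b* passed the filter through reporter-low cells alone. On plates 1 and 2 they reached 20 counts in 1.45% and 0%, and in 2.90% and 0%, of reporter-high cells. These calls are thus a description and are not set against the share over all genes. The 10 macrophage genes summed to 397 and 188 CPM in reporter-high cells of plates 1 and 2, against 1841 and 1469 CPM in reporter-low cells. In columns 1 to 16 no macrophage gene passed the filter, and the neutrophil medians were 0.16 and 1.13 with no gene called. The marker gene of red blood cells that could be compared, *hbae3*, was lower at -1.39 and -1.64, and so was *csf1ra*, of xanthophores and macrophages. Of 3 epidermis genes, *cldni* was lower. None of these 3 genes was called in columns 1 to 16, where *hbae3* was at -0.52 and -0.58. *csf1ra* (-2.50 and -3.16) and *cldni* (-1.73 and -3.90) stayed more than 2-fold lower there but did not pass the filter. None of 9 cell cycle genes and none of 10 dissociation stress genes was called, with medians between -0.11 and 0.12 on the log2 scale. The early response gene *jun* was at 0.16 and 0.17, and *mki67* at -0.03 and 0.36.

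**Figure D5:**
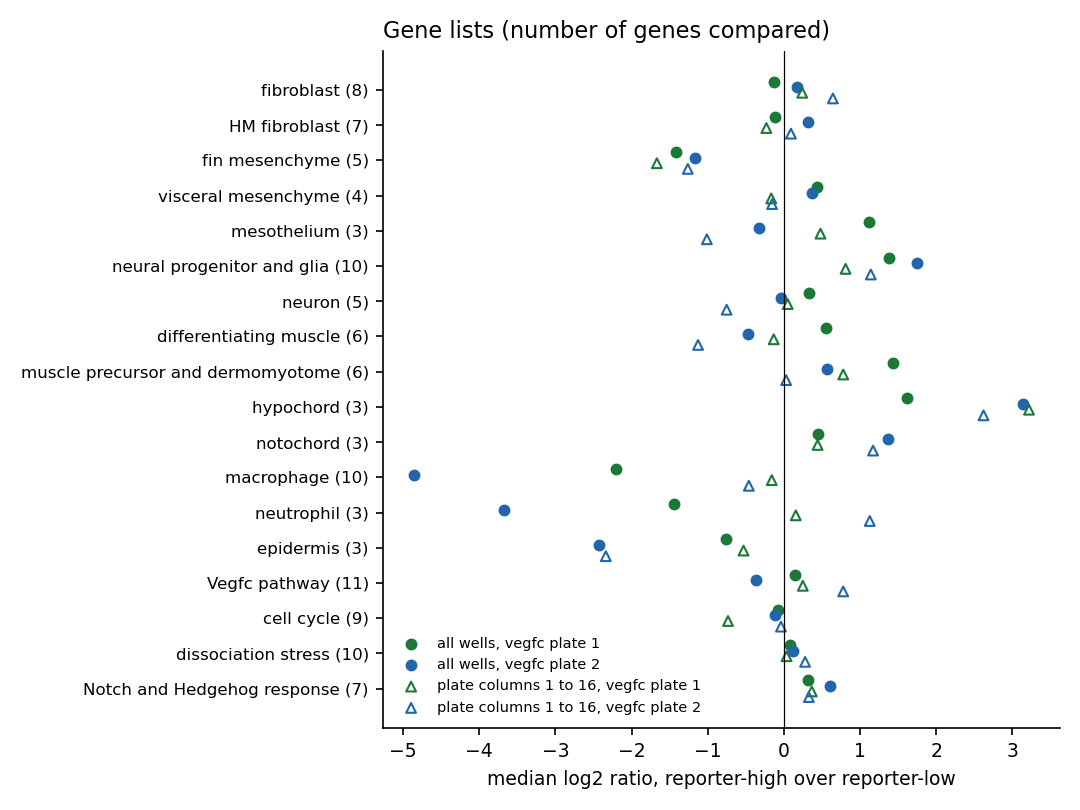
Median log2 ratio, reporter-high over reporter-low, of the genes of each list with at least 3 compared genes, on plate 1 (green) and plate 2 (blue), in all wells (circles) and in plate columns 1 to 16 (triangles, over the genes that passed the filter of all wells), with the number of genes compared in brackets. The macrophage list is at -2.20 and -4.85 in all wells and at -0.16 and -0.46 in columns 1 to 16, and the neural progenitor and glia list at 1.38 and 1.74 and at 0.81 and 1.14.

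Of 11 genes of the Vegfc pathway compared, *vegfc* among them, none was called in either direction. Within columns 1 to 16, 2 of 11 were higher, *vegfc* and the chemokine gene *cxcl12a* (1.1 and 1.66), and the median on plate 2 was 0.78, against -0.37 in all wells. At a threshold of 300 *eGFP* counts *vegfc* was higher (2.86 and 1.09), and *pcsk7* (-1.89 and -3.83) and *svep1* (-1.07 and -1.76) were lower. Among the factors that process Vegfc, *ccbe1* had 43.1 CPM in reporter-high cells of plate 1, against 24.6 CPM in reporter-low cells, and 10.9 against 44.1 CPM on plate 2. It reached 20 counts in 6 of 69 and 1 of 33 reporter-high cells, against 11 of 238 and 29 of 284 reporter-low cells, and it was far above both in cells with 20 or more *en1a* counts, at 757 and 567 CPM. The protease gene *adamts3* had 11.8 and 47.4 CPM in reporter-high cells, against 10.5 and 21.9 CPM in reporter-low cells. It reached 20 counts in 3 of 69 and 7 of 33 reporter-high cells, against 14 of 238 and 28 of 284 reporter-low cells. The second such protease gene, *adamts14*, reached 20 counts in 0 of 102 reporter-high cells, which allows up to 2.94%, against 2 of 238 and 2 of 284 reporter-low cells. The matrix protein gene *svep1*, which is needed for lymphatic development, had 9.27 and 51.8 CPM against 17.3 and 33.9 CPM. *vegfd*, the closest relative of *vegfc*, reached 20 counts in 3 and 1 reporter-high cells, against 11 and 5 reporter-low cells.

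Among receptors, the co-receptor gene *nrp2a* was nearest to a call, at 130 and 129 CPM in reporter-high cells, against 80.1 and 54.0 CPM in reporter-low cells (log2 ratios 0.69 and 1.24). *flt4* had 88.7 and 11.7 CPM against 28.0 and 29.7 CPM, in opposite directions on the 2 plates. On plate 1, however, 1 reporter-high cell held 1278 of the 2010 counts. There 5 of 69 reporter-high cells reached 20 counts, against 18 of 238 reporter-low cells, and on plate 2 it was 3 of 33 against 23 of 284. *kdrl*, the gene whose promoter drives the mCherry of this line, had 57.7 and 5.75 CPM against 33.3 and 94.4 CPM. The chemokine genes *cxcl12a* and *cxcl12b* had 47.4 and 147 CPM and 196 and 127 CPM in reporter-high cells of plates 1 and 2, against 44.6 and 174 CPM and 313 and 241 CPM in reporter-low cells. The mCherry row reached 20 counts in 3 reporter-high cells and 19 reporter-low cells.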

How the data were processed

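Single cells of trunks of 48 hpf zebrafish embryos were sorted into multiwell plates and sequenced by Smart-seq2. The values used are unnormalized read counts for each gene in each cell, which the authors deposited after trimming, alignment to GRCz11, removal of doublets as the methods call it, and counting with featureCounts. The labels name bcl2fastq, Bowtie2 and Subread. Of 32151 rows, 32057 were genes, 92 were spike-ins and 2 were reporters, and the last 2 kinds were left out of CPM. Symbols came from a table of identifiers (28988 genes), and from the source data of the study (1037 genes). Of 232 listed symbols 180 were matched. No doublet caller was run.

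The members and the gene lists were chosen with earlier results of these data known. Gene counts were summed per plate and reporter group, scaled to CPM, and compared as log2((CPM + 1)/(CPM + 1)). A gene was compared with at least 300 counts in all, in at least 3 cells, and with 20 or more counts in at least 5% of the cells of either reporter group on each plate. Named genes were, per direction, the 15 called genes with the largest value of the smaller of both plates' log2 ratios, reaching 20 counts in 10% or more of the higher group's cells on each plate, plus the Vegfc pathway genes and examples of each list.

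For clustering, 500000 counts per cell, 3000 overdispersed genes, 50 principal components and 15 neighbours were used, with Leiden resolution raised to 2.5 for 24 clusters (igraph 0.11.9, leidenalg 0.10.2, scikit-learn 1.9.0, Python 3.11.15, numpy 2.4.6, pandas 2.3.3, scipy 1.17.1). The thresholds for naming a cluster were set after the clusters were seen. A name needed the mean log2 ratio of a marker list to be at least 1.5 over other cells, and at least 1 above the next list that passed, with 3 markers found in 50% of its cells. Fibroblast-like clusters needed 20 counts of at least 6 fibroblast genes in 40% of their cells. Both TMM (edgeR 4.0.16) and size factors (DESeq2 1.42.0, R 4.3.3) were tried as other scalings of the summed counts, along with other *eGFP*, *vegfc* and filter thresholds, other clusterings, and single plates. Ratios and clustering were run on simulated data, with planted changes larger than 2-fold and, for the ratios, no kinds of cell. This does not show how the 2-fold call behaves on cells of mixed kinds.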

Additional observations from a re-analysis of the deposited data

Results flagged for a closer look

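Reads on the *eGFP* row were not confined to the line that carries GFP. Of the 365 cells of the *pdgfra:mCit* plate, which entered no comparison, 96 (26.3%, 95% interval 21.9 to 31.1) had at least 100 counts on this row. Their plate had a median of 45.0 counts and a maximum of 397, and 4 cells reached 300. Of these 96 cells, 32 had 20 or more *en1a* counts. mCitrine is a variant of GFP, and whether its reads were counted on the *eGFP* row was not tested. The level of the row in cells without a high reporter also differed between the 2 *vegfc* plates, with medians of 50.5 and 17 counts in reporter-low cells of plates 1 and 2.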

How the results depend on the processing

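No paired analysis was possible because well names identify single cells and pair nothing across groups. At an *eGFP* threshold of 20 counts, 6.56% of reporter-high cells had *vegfc*, 31.5% were fibroblast-like, and 79.2% of neural progenitor and glia-like, 78.9% of muscle precursor and dermomyotome-like and 100% of hypochord-like cells were reporter-high, while *robo4* and *c7a* turned to mean log2 ratios of -1.10 and 1.47. At 300 counts, chosen after seeing the data, 807 genes were lower, the *vegfc* log2 ratio was 1.98 and its share 32.6%, and 14% of muscle precursor and dermomyotome-like cells were reporter-high. At 500 counts, 391 genes were higher and 993 lower, the *vegfc* log2 ratio was 1.95 and its share 35.3%, and the shares of neural progenitor and glia-like and of muscle precursor and dermomyotome-like cells were 16.7% and 12.3%. With 5 CPM added, 144 genes were higher. With no filter on the share of cells, 412 were higher and 1849 lower. Counting *vegfc* from 1 read gave 45.1% of reporter-high cells.

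With 1 plate left out at a time, 826 to 1414 genes were higher and 1350 to 1816 lower, the *vegfc* log2 ratio was 0.89 to 1.66 and its share 11.6% to 30.3%. The fibroblast-like share was 21.2% to 21.7%, the neural-like share 15.9% to 30.3%, and the reporter-high shares of neural progenitor and glia-like, muscle precursor and dermomyotome-like and hypochord-like cells were 26.7% to 38.9%, 19% to 41.7% and 66.7% to 75%.

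Of the alternatives chosen after seeing the data, columns 1 to 16 gave 123 higher and 227 lower genes and *zgc:172352* at 0.030. Leaving out macrophage-like and neutrophil-like cells gave 195 lower genes and *zgc:172352* at 0.35. Leaving out neural-like cells gave *gfap* at -0.51 and *robo4* at -1.82. The causes of these shifts were not tested beyond what each setting leaves out. Of 112 values of the main results under all alternatives, 83 moved by less than their interval, the spread between plates or, for counts of genes, 1.5 times, and the others are given above. Of 480 values of the named genes, 6 reversed, as given above. TMM scaling, DESeq2 size factors and an *eGFP* threshold scaled to depth moved no main result past these bounds. The other clusterings moved no share of fibroblast-like, neural-like or neural progenitor and glia-like cells past them, but left no share of hypochord-like cells with Ward clustering or with the compared cells clustered alone, and none of muscle precursor and dermomyotome-like cells with 30 neighbours, as no cluster then had the name. The alternatives for the shares of reporter-high cells within a kind were added after seeing the data. Cells without any count of *en1a* or *en1b* were too few, at 2 reporter-high and 29 reporter-low, and this alternative was not run. No single kind had more than 19 reporter-high cells, which limits the precision of its shares.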
